A study of Mus musculus with 32 samples.

Results

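The mouse mitochondrial genome and the machinery that copies and expresses it were followed as 31 genes listed by gene symbol: the 13 proteins encoded in mitochondrial DNA (mtDNA) and 18 nuclear genes for its replication, transcription, RNA stability and translation. All 31 were found among the 50686 genes in the deposited tables, and all 31 passed the filter on low counts in every model. RNA-seq of polyA RNA was made from cells sorted from intestinal crypts of mice of strain C57BL6. Stem cells were sorted as Lgr5-eGFP high and progenitors as Lgr5-eGFP low. Both gates kept EpCAM-positive cells with little or no CD24 and without CD31, Ter119, CD45 or the dead-cell dye 7AAD.

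The 8 groups were stem cells and progenitors of Cpt1a-deficient mice on a high fat diet, of Cpt1a-deficient mice on its control diet (High Fat Control), of wild-type mice on the high fat diet and of wild-type mice on the control diet. The deficient mice carried Cpt1a fl/fl, Villin-CreER and Lgr5-GFP-IRES-CreER, and the mice called wild type carried the same Cre drivers without the floxed alleles. Cpt1a encodes the carnitine acyltransferase that commits long-chain fatty acids to oxidation in mitochondria. Both drivers are inducible, the first throughout the intestinal epithelium and the second in Lgr5-expressing cells, so the stem cell marker allele was present in every group. Each group held 4 libraries, 2 from females and 2 from males per the labels, 32 in all. The labels do not give ages or the timing of induction, nor whether a stem cell and a progenitor library came from the same mouse, so the p-values measure the spread between these libraries.

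Animal mtDNA encodes core subunits of respiratory complexes I, III, IV and V, together with the ribosomal and transfer RNAs needed to translate them inside the organelle. Everything else comes from nuclear genes: a dedicated replisome copies the DNA, a phage-type RNA polymerase reads it as long polycistronic transcripts, a tailing enzyme and RNA-binding proteins set the fate of the messengers, and bacterial-type initiation and elongation factors drive the mitochondrial ribosome. In the crypt, Lgr5-positive stem cells renew the epithelium, and their progenitors divide and differentiate. Most messenger RNAs made in mitochondria carry short polyA tails, which is how they enter polyA libraries.

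The libraries held 3307711 to 7337425 estimated counts. Cpt1a stood at 18.8 to 30.6 CPM (counts relative to a TMM-scaled library size of 1000000) in the Cpt1a-deficient libraries and at 119 to 347 CPM in the wild-type ones. Lgr5 reached 282 to 515 CPM in stem cells and 11.9 to 85.7 CPM in progenitors. Epcam, the epithelial marker of the gate, lay between 1900 and 2760 CPM throughout, and Ptprc, which encodes CD45, never passed 0.614 CPM.

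Of the 13 mitochondrial messengers, 7 exist in near-identical form, whole or in part, in the nuclear genome. For each of these except mt-Nd4, the deposited counts divide reads between the versions in at least some libraries. Pseudogenes on the minus strand of chr1:24611535-24616197 (GRCm38) repeat 7 of the 13 genes at 99% identity or more over at least 200 bases. The other 6 genes, mt-Nd1, mt-Nd2, mt-Nd5, mt-Nd6, mt-Atp8 and mt-Cytb, have no such copy. The paired sequences, from GENCODE M21, show how little there is to tell them apart. For mt-Co3 (cytochrome c oxidase subunit 3) and its copy Gm28437 all 783 aligned bases are the same, and the start codon is in capitals at chrM:8607-8666 and at chr1:24613912-24613971.
mt-Co3: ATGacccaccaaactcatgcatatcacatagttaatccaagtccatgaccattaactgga
Gm28437: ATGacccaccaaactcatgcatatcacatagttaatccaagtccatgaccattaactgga
For mt-Nd3 (a complex I subunit) and Gm28438, 1 of 345 bases differs, T3C, counted from the gene's first base and in capitals at chrM:9459-9518 and at chr1:24613060-24613119.
mt-Nd3: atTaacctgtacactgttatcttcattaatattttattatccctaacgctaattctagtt
Gm28438: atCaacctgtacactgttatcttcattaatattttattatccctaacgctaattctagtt
Gm29216 was counted as a copy of mt-Co1 (cytochrome c oxidase subunit 1) by a match of 483 bases at 99.79% identity. In full, Gm29216 covers 492 of the 1545 bases of mt-Co1 and differs at 6 of them: T1056A, C1057T, A1059G, A1060G, C1062A and A1066T. These are in capitals at chrM:6381-6440 and at chr1:24616138-24616197.
mt-Co1: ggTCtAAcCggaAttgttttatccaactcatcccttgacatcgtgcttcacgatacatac
Gm29216: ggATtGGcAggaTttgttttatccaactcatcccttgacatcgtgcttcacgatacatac
No base differs over the aligned 678 bases of mt-Atp6 and Gm10925, 681 of mt-Co2 and Gm28661, 294 of mt-Nd4l and Gm10222, and 876 of mt-Nd4 and Gm28439.

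In the mt-Co3 pair nearly all estimated counts had gone to the nuclear copy. mt-Co3 itself held 1 to 2996 estimated counts per library, and Gm28437 held 14951 to 44156. The mitochondrial gene received 0.00245% to 9.06% of the pair's counts, with a median of 2.8%. Its values fell on a few levels only: 9 libraries stood at a count of 1, 12 at 746 to 773, 7 at 1490 to 1550, 2 at 2245 or 2248 and 2 at 2994 or 2996. Thus all 32 values lay within 44 of a whole multiple of 753, the median of the second of these levels. Added to its copy, mt-Co3 had a coefficient of variation within groups of 12.3% (median over groups), against 93.2% for mt-Co3 as deposited.

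The other pairs were divided differently. mt-Co2 (cytochrome c oxidase subunit 2) kept 25.5% to 69.0% of its pair, with a median of 49.1%, and adding the copy brought its coefficient of variation to 15%, against 32.3% as deposited. mt-Nd3 kept 24.5% to 100.0%, mt-Nd4l 51.4% to 100.0%, mt-Atp6 82.9% to 100.0% and mt-Co1 79.1% to 85.7%. No library gave mt-Nd4 counts to its copy. Results for these 7 genes are therefore given with the copies added where the text says so, and the deposited value of mt-Co3 carries little information about its RNA.

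**Figure D1:**
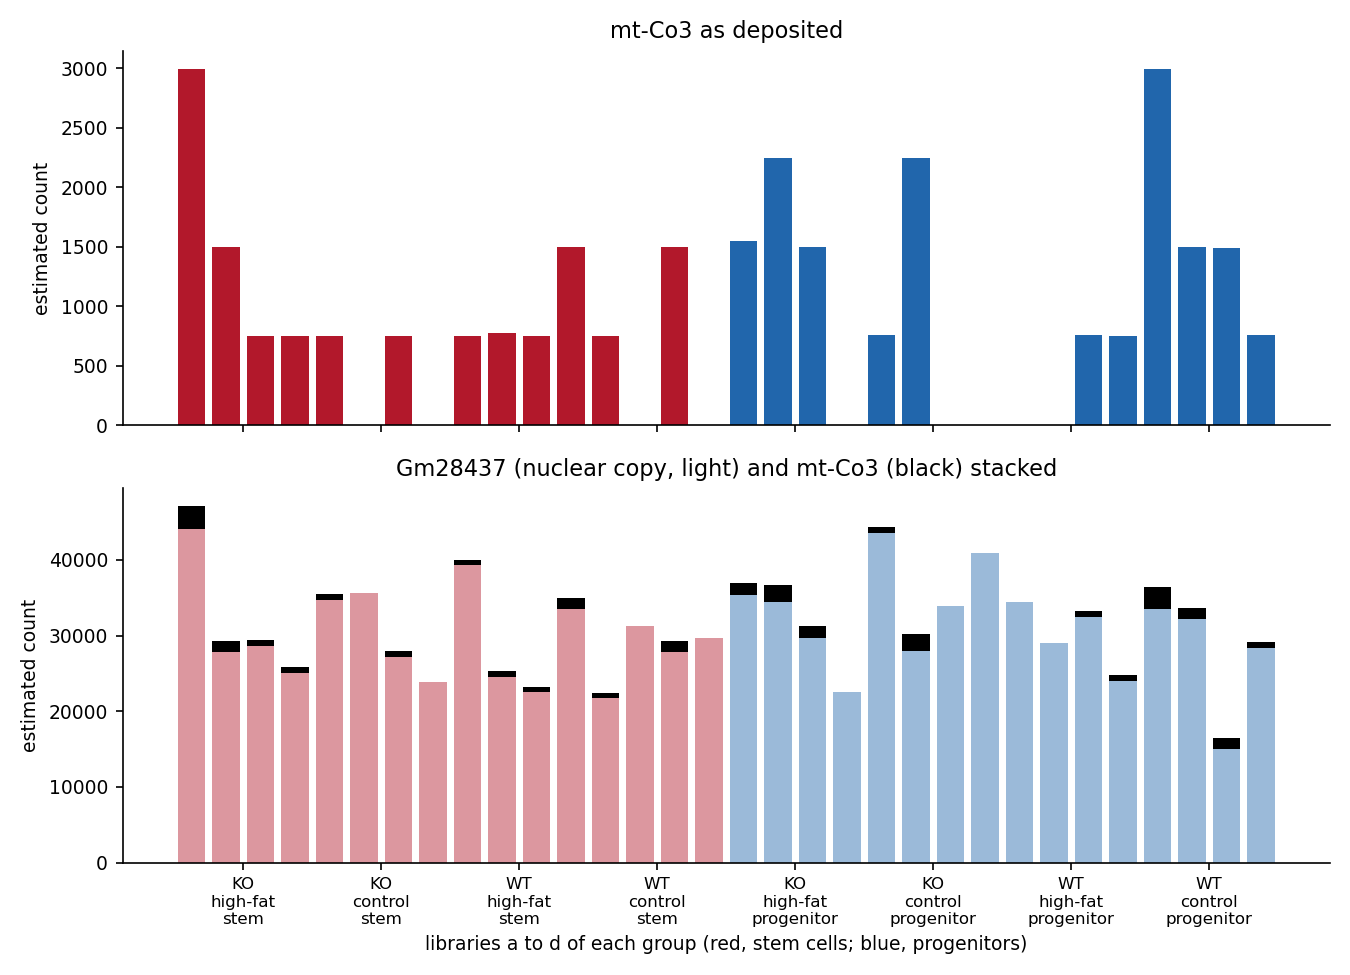
Estimated counts of mt-Co3 as deposited (upper panel) and of its nuclear copy Gm28437 with mt-Co3 stacked on it in black (lower panel), 1 bar per library, groups in order from Cpt1a-deficient (KO) to wild type (WT), stem cells in red and progenitors in blue. The upper bars stand at a few levels between 1 and 2996, whereas the stacked bars run from 16441 to 47152.

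Per length, the values of the mitochondrially encoded RNAs spanned a wide range. With the copies added, mt-Co3 had a median of 11640 TPM over the 32 libraries (7750 to 15820 TPM) and mt-Atp6, an ATP synthase subunit, 10320 TPM (7519 to 14980 TPM). mt-Cytb, the complex III cytochrome b, followed with a median of 5914 TPM. mt-Co2 with 5131 TPM, mt-Atp8 with 5048 TPM, mt-Co1 with 4059 TPM and mt-Nd1 with 3861 TPM came next, and each of these ranges overlapped that of its neighbours. The copy of mt-Co1 was added on the length of mt-Co1 itself, because it covers only a piece of the gene. The remaining complex I subunits were far lower: mt-Nd4 at 1052 TPM, mt-Nd4l at 604.1 TPM, mt-Nd2 at 482.1 TPM, mt-Nd5 at 385.3 TPM, mt-Nd3 at 376.4 TPM and mt-Nd6 at 356.0 TPM. The ranges of the last 4 overlapped. mt-Nd6 lies on the other strand at chrM:13552-14070 and overlaps the end of mt-Nd5 (chrM:11742-13565), and mt-Atp8 overlaps mt-Atp6 and mt-Nd4l overlaps mt-Nd4. mt-Atp8 and mt-Atp6 lie on the same strand, as do mt-Nd4l and mt-Nd4, so strand cannot separate reads in those overlaps. For mt-Nd5 and mt-Nd6 it could, but how the counting treated strand is not given in the sources used here. Reads in these overlaps therefore cannot be assigned. The part of polyA capture and of gene length in this ranking was not tested.

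Among the 18 nuclear genes, Tufm was the highest per length with a median of 255.3 TPM, followed by Slirp with 222.6 TPM, Ssbp1 with 188.3 TPM and Tfam with 131.3 TPM. Polg2 with 12.72 TPM and Tfb1m with 11.69 TPM were the lowest, and their ranges overlapped. Replicates of most nuclear genes agreed better than those of the mitochondrial ones. The median coefficient of variation within groups ran from 5.1% for Lrpprc to 15.5% for Polg2, and from 11.5% for mt-Cytb to 20.3% for mt-Nd5 among the mitochondrial genes without a close copy.

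By edgeR, the genes that copy mtDNA were higher in stem cells than in progenitors, and 4 of 6 factors that translate its messengers were lower. On the log2 TPM scale described below, the replication genes passed as higher too. Of the 6 translation factors, Gfm1 alone passed as lower on that scale, and Mtif2 and Gfm2 passed as higher. Over all 32 libraries, 13 of the 31 genes passed at an adjusted p under 0.05 (edgeR quasi-likelihood test, Benjamini-Hochberg over 13088 genes), with 6 higher and 7 lower in stem cells. Of all genes tested, 63.5% passed this comparison, 32.5% higher and 31% lower, so a count of 13 of 31 is below the background. By role, 4 of 4 replication genes were higher, 1 of 5 packaging and transcription genes was higher, 2 of 3 RNA stability genes were lower, and of 6 translation factors 4 were lower and 1 higher. Of the 13 mitochondrially encoded genes 1 was lower. The median log2 fold change was -0.13 for the mitochondrially encoded genes and 0.00 for the nuclear ones, against 0.02 for all genes tested. Each library is a bulk of sorted cells, in which fewer cells of a type and less RNA per cell cannot be told apart.

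**Figure D2:**
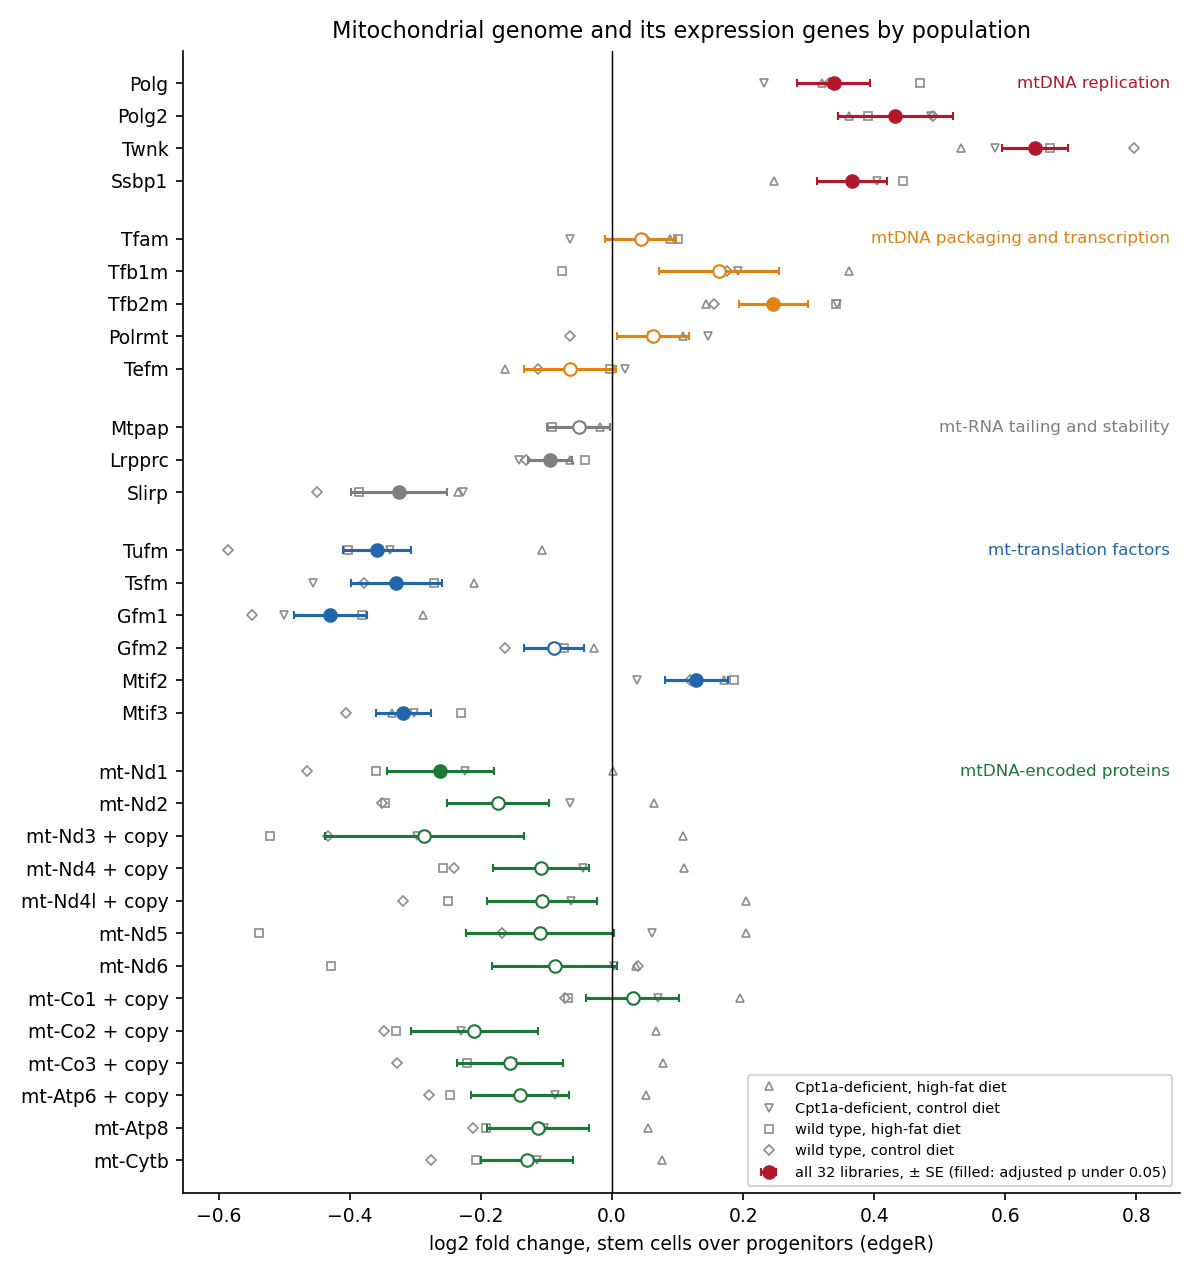
Log2 fold change of stem cells over progenitors for the 31 genes, ordered by role, with the nuclear copies added for the 7 genes that have one. Circles and bars are the estimate ± SE over all 32 libraries (filled where the adjusted p is under 0.05), and small open symbols are the 4 combinations of genotype and diet. The 4 replication genes sit between 0.34 and 0.65 and 4 translation factors between -0.43 and -0.32. On the log2 TPM scale, where the median of all genes is 0.27, 11 of the 13 mitochondrially encoded genes with copies added, and Tefm, Mtpap, Lrpprc and Gfm2, change sign. Of the 4 translation factors, Gfm1 alone passes on that scale.

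The replisome genes were the clearest group. Twnk (ENSMUSG00000025209, chr19:45005663-45012762), which encodes the mtDNA helicase Twinkle, ranged from 84.53 to 111.1 CPM in stem cells, with a median of 99.47 CPM, and from 50.52 to 75.76 CPM in progenitors, with a median of 62.04 CPM. Every stem cell library stood above every progenitor library. The log2 fold change was 0.65 ± 0.05 (SE, adjusted p = 2.20e-12). Twnk passed in each of the 4 combinations of genotype and diet taken alone, with log2 fold changes of 0.53 in Cpt1a-deficient mice on the high-fat diet, 0.58 in Cpt1a-deficient mice on the control diet, 0.67 in wild type on the high-fat diet and 0.80 in wild type on the control diet.

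Ssbp1, the single-stranded DNA binding protein of mitochondria, ran from 112.6 to 168.4 CPM in stem cells (median 138.0 CPM) and from 85.85 to 125.9 CPM in progenitors (median 111.0 CPM). Although the ranges met, 14 of 16 stem cell libraries exceeded every progenitor library, and the log2 fold change was 0.37 ± 0.05 (adjusted p = 5.77e-07). Polg, the catalytic subunit of the mtDNA polymerase, had 64.75 to 106.6 CPM in stem cells (median 94.98 CPM) and 62.28 to 88.68 CPM in progenitors (median 74.45 CPM). Its log2 fold change was 0.34 ± 0.06 (adjusted p = 3.88e-06), with 13 of 16 stem cell libraries above all progenitors. The lowest stem cell value, 64.75 CPM, came from library a of the Cpt1a-deficient, high-fat group. Polg2, the accessory subunit that clamps the polymerase to DNA, was expressed at a low level, with medians of 15.47 CPM in stem cells and 11.42 CPM in progenitors. It rose by 0.43 ± 0.09 on the log2 scale (adjusted p = 8.24e-05).

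By edgeR, the genes that package and transcribe mtDNA moved less. Tfam, the high-mobility-group protein that coats mtDNA and starts transcription, had 99.62 to 156.6 CPM in stem cells (median 132.7 CPM) and 110.2 to 149.7 CPM in progenitors (median 123.2 CPM). The populations overlapped throughout, and the log2 fold change of 0.04 ± 0.05 did not pass (adjusted p = 0.495). Polrmt, the mitochondrial RNA polymerase, gave 0.06 ± 0.05 (adjusted p = 0.321), and Tefm, its elongation factor, -0.06 ± 0.07 (adjusted p = 0.432). Tfb2m, the transcription initiation factor that opens the promoter, was the member of this group that passed, with 70.57 to 101.3 CPM in stem cells and 61.02 to 89.19 CPM in progenitors and a log2 fold change of 0.25 ± 0.05 (adjusted p = 1.36e-04). Its relative Tfb1m, an rRNA methyltransferase, gave 0.16 ± 0.09 (adjusted p = 0.121). On the log2 TPM scale described below, Tfam, Polrmt, Tefm and Tfb1m passed as higher too.

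Of the genes that tail and stabilise mitochondrial RNA, Slirp was the one with the larger change. It encodes the partner of Lrpprc, and its RNA ran from 41.38 to 71.21 CPM in stem cells (median 52.27 CPM) and from 51.9 to 78.05 CPM in progenitors (median 69.56 CPM). In 8 of 16 stem cell libraries it was below every progenitor library, and it fell by 0.32 ± 0.07 on the log2 scale (adjusted p = 2.75e-04). Lrpprc, which holds mitochondrial messengers in a stable, translatable form, fell by 0.09 ± 0.03 (adjusted p = 0.0136) by edgeR. On the log2 TPM scale it passed by limma with the opposite sign, 0.20 (adjusted p = 8.55e-04). Mtpap, the mitochondrial polyA polymerase, gave -0.05 ± 0.05 (adjusted p = 0.361) by edgeR. By limma on log2 TPM it passed as higher with 0.23 (adjusted p = 3.18e-05).

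By edgeR, the translation factors were mostly lower in stem cells, whereas on the log2 TPM scale Gfm1 alone passed as lower. Gfm1, the elongation factor that moves the mitochondrial ribosome along the messenger, had 80.82 to 111.1 CPM in stem cells (median 91.94 CPM) and 94.6 to 152.6 CPM in progenitors (median 127.2 CPM). None of the 16 stem cell libraries reached the progenitor median, and the log2 fold change was -0.43 ± 0.06 (adjusted p = 7.20e-08). Tufm, the factor that brings aminoacyl-tRNAs to the ribosome, ran from 199.8 to 278.1 CPM in stem cells (median 234.1 CPM) and from 244.8 to 348.5 CPM in progenitors (median 295.4 CPM). It fell by 0.36 ± 0.05 (adjusted p = 4.52e-07). Its exchange factor Tsfm fell by 0.33 ± 0.07 (adjusted p = 1.29e-04), with medians of 67.28 CPM in stem cells and 88.66 CPM in progenitors.

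The initiation factors went separate ways. Mtif3, which prepares the small subunit for initiation, had 32.7 to 44.21 CPM in stem cells (median 39.68 CPM) and 44.9 to 54.9 CPM in progenitors (median 48.47 CPM). The populations did not overlap in CPM, and Mtif3 fell by 0.32 ± 0.04 (adjusted p = 1.01e-07) by edgeR. In TPM they overlapped, at 29.98 to 53.77 in stem cells and 34.47 to 49.68 in progenitors. Mtif2, which places the initiator tRNA, rose by 0.13 ± 0.05 (adjusted p = 0.0204), with medians of 50.77 CPM in stem cells and 46.5 CPM in progenitors. Gfm2, the factor that recycles ribosomes, gave -0.09 ± 0.05 and did not pass (adjusted p = 0.0926).

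**Figure D3:**
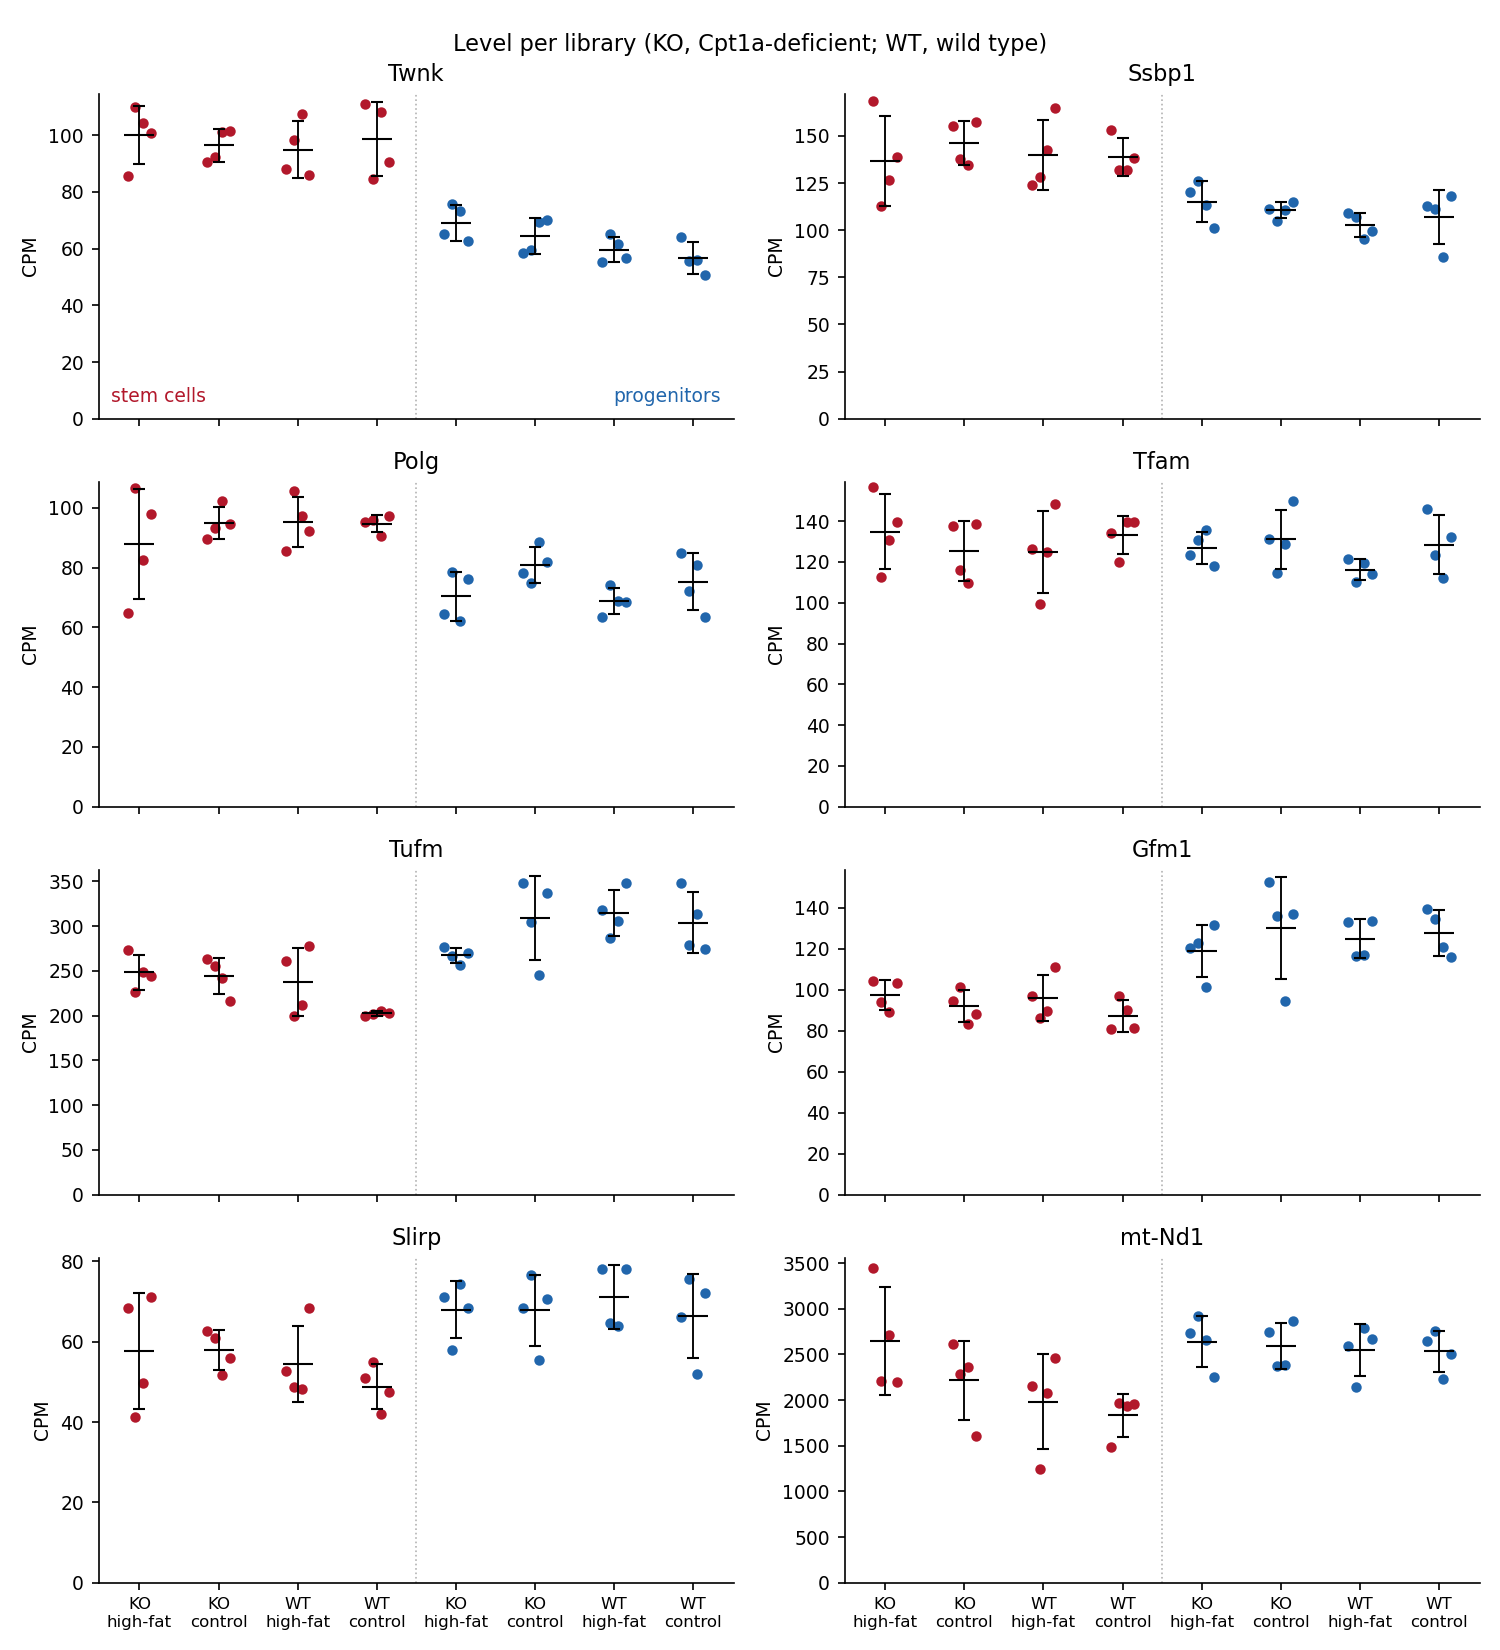
TMM-scaled CPM of 8 of the 31 genes in every library, with the mean and SD of each group of 4, stem cells in red on the left and progenitors in blue on the right, KO for Cpt1a-deficient and WT for wild type. Twnk is above its progenitor values in all 16 stem cell libraries, Gfm1 and Tufm are mostly below theirs, and Tfam overlaps. On the log2 TPM scale Tufm and Slirp do not pass, Tfam passes as higher and mt-Nd1 changes sign.

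These calls depend in part on how libraries are scaled. On the deposited log2(TPM + 1) values, tested with limma, the median of all genes tested was 0.27 higher in stem cells, against 0.02 by edgeR. All 4 replication genes and Tfb2m passed on that scale too. Relative to the shift of 0.27, Twnk was higher by 0.64, Polg2 by 0.41, Ssbp1 by 0.35 and Polg by 0.32. Gfm1 stayed lower with an adjusted p of 0.0360. Tufm, Tsfm, Mtif3 and Slirp were lower than the median gene by 0.28 to 0.38 but did not pass against 0, with values of -0.07, -0.02, -0.04 and -0.11. Mtif2 passed with 0.45, and Gfm2, which edgeR did not call, passed as higher with 0.25. Also not called by edgeR, Tfb1m (0.44), Polrmt (0.38), Tfam (0.30), Mtpap (0.23) and Tefm (0.21) passed as higher. Lrpprc, lower by edgeR, passed as higher with 0.20. Relative to the shift, Tfb1m was at 0.17, Polrmt at 0.12 and Tfam at 0.03. Gfm2, Mtpap, Tefm and Lrpprc were at -0.02, -0.03, -0.05 and -0.07. On this scale 7625 of 13088 genes tested passed as higher and 1988 as lower.

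Among the mitochondrially encoded RNAs, the difference between the populations was small and rested on mt-Nd1. This complex I subunit (ENSMUSG00000064341, chrM:2751-3707) has no close nuclear copy. It had 1248 to 3452 CPM in stem cells (median 2174 CPM) and 2144 to 2924 CPM in progenitors (median 2649 CPM). Of 16 stem cell libraries 7 were below and 1 was above every progenitor library, so the stem cell libraries were lower on balance but far more spread. The log2 fold change was -0.26 ± 0.08 (adjusted p = 0.00623) by edgeR and 0.010 on the log2 TPM scale.

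The other 12 mitochondrially encoded genes did not pass by edgeR. As deposited, 12 of the 13 had a negative value and mt-Co1 a value of 0.02, with signs that turn positive for 10 genes on the log2 TPM scale and remain positive for mt-Co1. mt-Nd2 was nearest, at -0.17 ± 0.08 with an adjusted p of 0.0518. It passed with DESeq2 (adjusted p = 0.0375), with DESeq2 size factors in edgeR (0.0447), with the Xist level as a covariate (0.0431) and with a term for the run of columns (0.0359). With the copies added, none of the 7 genes concerned passed: mt-Co2 gave -0.21 ± 0.10 (adjusted p = 0.0613), mt-Co3 -0.16 ± 0.08 and mt-Nd3 -0.29 ± 0.15. On the log2 TPM scale with copies added, 12 of the 13 genes had a positive value, with a median of 0.14 against 0.27 for all genes, and mt-Co1, mt-Nd4, mt-Atp8 and mt-Cytb passed by limma as higher in stem cells. mt-Nd3 was the exception, at -0.064. The deposited mt-Co3 counts gave -0.36 ± 0.77.

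Taken condition by condition, fewer genes passed. In Cpt1a-deficient mice on the high-fat diet 4 of 31 did, where 31.4% of all genes tested passed, and in Cpt1a-deficient mice on the control diet 8, where 36.8% did. In wild type on the high-fat diet 8 passed, against 37.3% of all genes, and in wild type on the control diet 10, against 41.4%. Twnk, Gfm1 and Mtif3 passed in all 4. mt-Nd1 passed in wild type on the control diet, at -0.46 ± 0.16 (adjusted p = 0.0231). With copies added, the median of the 13 mitochondrially encoded genes was 0.08 in Cpt1a-deficient mice on the high-fat diet, -0.09 in Cpt1a-deficient mice on the control diet, -0.26 in wild type on the high-fat diet and -0.28 in wild type on the control diet. The tests of the differences between these conditions called no member.

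Markers of mature cells moved with the populations. The summed level of 8 goblet cell markers was 253 to 876 CPM in stem cells and 9400 to 26600 CPM in progenitors, that of 6 Paneth cell markers 182 to 2070 CPM in stem cells and 3040 to 20500 CPM in progenitors, and that of 6 enteroendocrine markers 3.54 to 46.8 CPM in stem cells and 466 to 1190 CPM in progenitors. All 20 of these markers, 7 of 7 enterocyte markers and 4 of 4 tuft cell markers were lower in stem cells, and 5 of 5 stem cell markers were higher. Every one of these genes had counts in both populations. The sum of 5 white blood cell markers was 5.43 to 13.8 CPM in stem cells and 10.3 to 34.6 CPM in progenitors, that of 5 stroma and endothelium markers 0 to 1.02 CPM in stem cells and 2.24 to 7.93 CPM in progenitors, and that of 9 genes of stress after dissociation 226 to 465 CPM in stem cells and 93.6 to 274 CPM in progenitors. Of the white blood cell markers 1 was at 0 in every progenitor library, and of the stroma and endothelium markers 1 was at 0 throughout stem cells and 2 throughout progenitors. The part of these 3 lists in the results was not tested. A per-library score of the goblet, Paneth and enteroendocrine markers separated the populations completely, at most -0.58 in stem cells and at least 0.605 in progenitors. With that score in the model none of the 31 genes passed, where 65 of 13088 genes tested passed as higher and 109 as lower. The effects of population and of these cells on the 31 genes cannot be told apart.

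Values for the wider lists of pathway genes, respiratory subunits and regulators are by edgeR, and those on the log2 TPM scale are not given here. The share of all genes that passed was again 63.5%, with 32.5% higher and 31% lower, and differences between lists were not tested. Of 14 other mtDNA maintenance genes, 8 were higher and 1 lower in stem cells. Tk2, the thymidine kinase of mitochondria, was higher by 0.62 ± 0.08 on the log2 scale (adjusted p = 6.39e-08), the primase-polymerase Primpol by 0.54 ± 0.07 and the topoisomerase Top3a by 0.44 ± 0.07. Endog, a mitochondrial endonuclease, fell by 0.64 ± 0.09 (adjusted p = 2.96e-07). Of 17 RNA processing and decay genes 2 were higher and 9 lower, among them Fastk at -0.22 ± 0.04 and Rexo2, an oligoribonuclease, at -0.35 ± 0.06, while Grsf1, an RNA granule protein, was at 0.23 ± 0.04. Of 16 genes that modify mitochondrial rRNA and tRNA 5 were higher and 3 lower, led by the methyltransferase Mrm1 at 0.49 ± 0.06.

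Other steps of translation were divided. Of 20 mitochondrial aminoacyl-tRNA synthetases and related enzymes 2 were higher and 7 lower, with Qrsl1, a subunit of the amidotransferase that makes glutaminyl-tRNA, at -0.47 ± 0.07 (adjusted p = 9.51e-07). Of 15 further translation, release and ribosome assembly genes 3 were higher and 4 lower, with the elongation factor Guf1 at 0.45 ± 0.05 and the peptidyl-tRNA hydrolase Mrpl58 at -0.47 ± 0.07. Neither of 2 mitochondrial rRNAs nor any of 5 further transcription and termination genes passed. A list of 18 of the nuclear-encoded subunits of complexes I to V and the electron carrier cytochrome c (Cycs) was lower in stem cells in 19 of 19 genes, with a median log2 fold change of -0.47, where 31% of all genes tested were lower.

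Regulators of mitochondrial genes were split as well, with 5 of 11 higher and 2 lower. Myc was higher by 0.80 ± 0.07 (adjusted p = 6.56e-12). Esrra, a nuclear receptor that drives genes of oxidative metabolism, fell by 0.57 ± 0.08 (adjusted p = 4.97e-07), and its coactivator Ppargc1b fell by 0.28 ± 0.07.

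The 70 bases around the start of several genes are shown because some members that rose and some that fell in stem cells hold the same short sequence there. The letters searched were CCGGAAG, the core bound by ETS factors such as GABP, on both strands, in windows from 250 bases before to 50 bases after the start in RefSeq (GRCm38.p6). Windows were at hand for 16 of the 18 nuclear genes, and 11 of 16 genes held the core. By window this was 11 of 17, against 8.86% of all windows and 18% of windows of genes tested. Tfb2m, which was higher in stem cells, and Lrpprc and Tsfm, which were lower, did not hold it, and Twnk held it farther upstream in 1 of its windows. The NRF1 core CGCATGCG, which reads the same on both strands, was in 1 of the 16 genes (Tfb2m). By window this was 1 of 17, against 1.87% of all windows and 3.87% of windows of genes tested. Capitals mark the core, written as CTTCCGG where it lies on the other strand. By edgeR, Polg (chr7:79466264-79466333), Ssbp1 (chr6:40471408-40471477) and Polg2 (chr11:106779528-106779597) were higher in stem cells, and Tfam (chr10:71238035-71238104) did not pass. Gfm1 (chr3:67430055-67430124), Tufm (chr7:126487295-126487364) and Slirp (chr12:87443836-87443905) were lower by edgeR.
Polg: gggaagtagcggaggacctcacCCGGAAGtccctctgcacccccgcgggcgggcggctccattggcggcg
Ssbp1: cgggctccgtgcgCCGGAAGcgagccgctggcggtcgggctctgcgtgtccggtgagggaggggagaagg
Polg2: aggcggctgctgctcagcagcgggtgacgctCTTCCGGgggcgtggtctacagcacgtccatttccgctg
Tfam: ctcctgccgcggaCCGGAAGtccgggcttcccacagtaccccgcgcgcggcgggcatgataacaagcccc
Gfm1: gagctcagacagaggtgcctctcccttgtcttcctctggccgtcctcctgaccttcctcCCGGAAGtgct
Tufm: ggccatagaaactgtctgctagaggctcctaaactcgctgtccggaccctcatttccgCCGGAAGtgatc
Slirp: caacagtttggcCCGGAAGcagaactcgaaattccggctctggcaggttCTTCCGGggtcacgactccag
A match is a run of letters in these windows and no measure of binding.

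Neither diet nor loss of Cpt1a moved any of the 31 genes past the threshold. In 14 comparisons of diet, genotype, their interaction and the difference of these effects between populations, edgeR called 0 of 31 genes, and so did DESeq2, limma and the other alternatives. Of all genes tested in stem cells, 0.0645% passed for diet in Cpt1a-deficient mice, 0.25% for diet in wild type, 0.443% for genotype on the high-fat diet and 0.242% for genotype on the control diet. In progenitors 0.313% passed for diet in Cpt1a-deficient mice, 0.0883% for diet in wild type, 0.706% for genotype on the high-fat diet and 0.257% for genotype on the control diet. In the 6 interaction and difference comparisons 0.00% passed. At an unadjusted p under 0.05, with copies added, stem cells had 1 member for diet in Cpt1a-deficient mice (4.71% of all genes), 1 for diet in wild type (11.7%), 1 for genotype on the high-fat diet (6.38%) and 2 for genotype on the control diet (4.73%). Progenitors had 0 for diet in Cpt1a-deficient mice (9.77% of all genes), 1 for diet in wild type (7.06%), 3 for genotype on the high-fat diet (10.6%) and 0 for genotype on the control diet (5.8%). As deposited, mt-Atp6 was a further one for genotype in stem cells on the high-fat diet, mt-Nd3 was one for diet in Cpt1a-deficient progenitors, and mt-Nd3 was not one for genotype in progenitors on the high-fat diet. None of the 87 further nuclear pathway genes tested passed in these 14 comparisons.

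**Figure D4:**
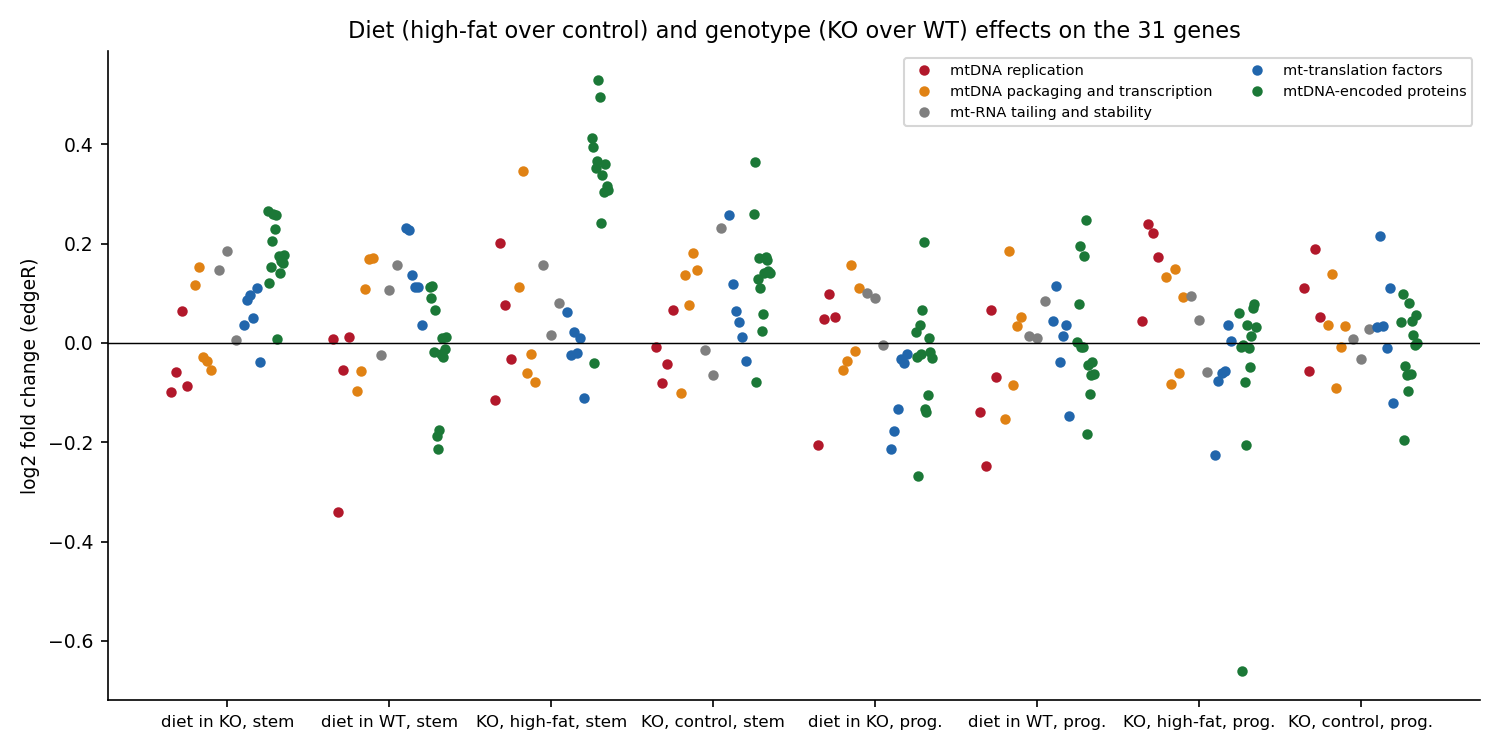
Log2 fold change of each of the 31 genes for diet (high-fat over control) and genotype (KO, Cpt1a-deficient, over WT, wild type) in stem cells and progenitors, coloured by role, with the nuclear copies added for the 7 genes that have one. None passed. In stem cells on the high-fat diet 12 of the 13 mitochondrially encoded genes are above 0, with a median of 0.35, and the lowest point overall is mt-Nd3 at -0.66 in progenitors on the high-fat diet.

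On the high-fat diet, most mitochondrially encoded genes were higher in value in Cpt1a-deficient than in wild-type stem cells, without passing. With copies added, 12 of 13 were, with a median log2 fold change of 0.35, and as deposited all 13, with a median of 0.39, against -0.00 for all genes tested. The lowest adjusted p was 0.670. mt-Nd2, with no close copy, had 514.1, 316.8, 344.2 and 280.1 CPM in Cpt1a-deficient stem cells and 295.7, 209.2, 293.1 and 310.3 CPM in wild-type stem cells. The groups overlapped, and the log2 fold change was 0.39 ± 0.16 (unadjusted p = 0.0278). On the control diet it had 379.2, 341.8, 348.7 and 281.0 CPM in Cpt1a-deficient and 226.6, 278.6, 272.8 and 263.0 CPM in wild-type stem cells, which did not overlap, and the log2 fold change was 0.36 ± 0.16 (unadjusted p = 0.0404). mt-Cytb had 6063, 4044, 4806 and 4089 CPM in Cpt1a-deficient and 4101, 2759, 3967 and 4529 CPM in wild-type stem cells, a log2 fold change of 0.31 ± 0.17.

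This movement was smaller without either of 2 libraries. The 13 genes and their copies took 3.681%, 2.574%, 3.012% and 2.392% of all counts in the Cpt1a-deficient stem cell libraries on the high-fat diet, and 2.548%, 1.649%, 2.469% and 2.709% in the wild-type ones. The first of the deficient libraries (a) and the second of the wild-type ones (b) were the highest and the lowest of all 32. Without the deficient library a the median of the 13 genes as deposited was 0.21, and without the wild-type library b it was 0.24. Leaving out any other stem cell library gave 0.39 to 0.49. The interaction of diet and genotype in stem cells gave 0.47 ± 0.34 for mt-Nd6 and 0.42 ± 0.41 for mt-Nd5, and no member had an unadjusted p under 0.05.

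**Figure D5:**
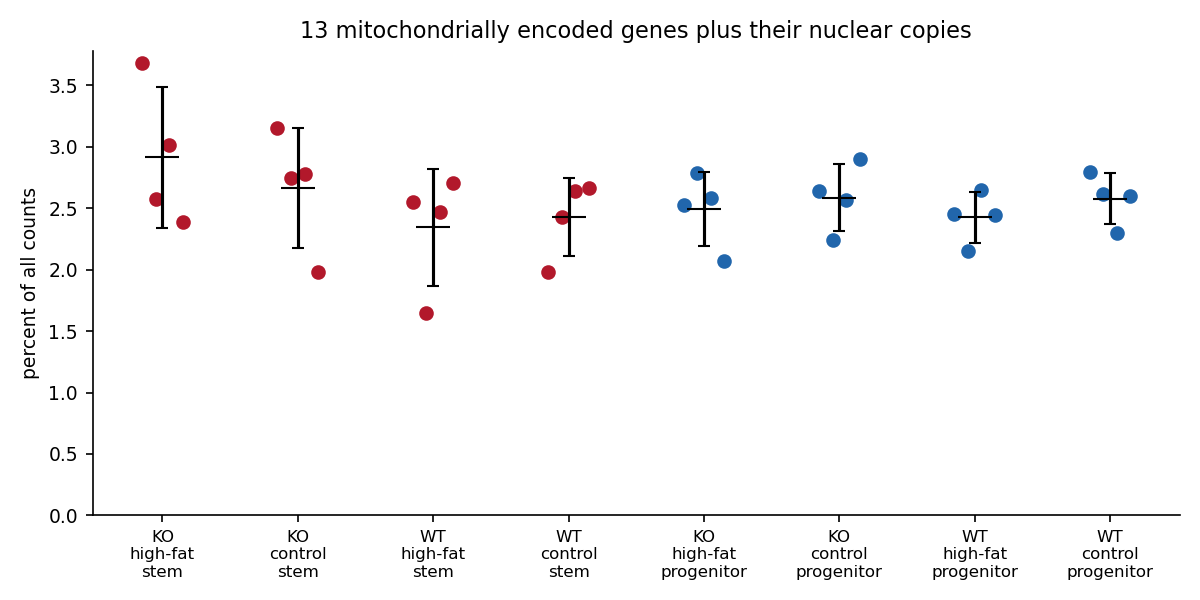
Percent of all estimated counts in the 13 mitochondrially encoded genes and their nuclear copies, 1 point per library, with mean and SD of each group of 4, KO for Cpt1a-deficient and WT for wild type. The highest point (3.681%) is a Cpt1a-deficient and the lowest (1.649%) a wild-type stem cell library on the high-fat diet, and the progenitor libraries lie between 2.072% and 2.901%.

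The effect of genotype on the high-fat diet was next compared between the populations. With copies added the difference, stem cells minus progenitors, was positive in 13 of 13 mitochondrially encoded genes, with a median of 0.37 and a lowest adjusted p of 1. It was 0.74 ± 0.32 for mt-Nd5 (unadjusted p = 0.0284), and 0.30 ± 0.15 for Tufm (unadjusted p = 0.05, adjusted p = 1). For mt-Nd4l it was 0.45 ± 0.24 with the copy (unadjusted p = 0.0666) and 0.74 ± 0.32 as deposited (unadjusted p = 0.0301). mt-Nd5 had 729.7, 516.5, 516.5 and 372.4 CPM in Cpt1a-deficient and 425.6, 226.2, 372.8 and 457.1 CPM in wild-type stem cells. In progenitors it had 500.9, 523.8, 466.9 and 361.8 CPM in Cpt1a-deficient and 535.6, 487.4, 597.9 and 529.8 CPM in wild-type libraries.

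mt-Nd3 with its copy came nearest to the threshold in any of the 14 comparisons. In progenitors on the high-fat diet it had 64.75, 63.7, 76.95 and 54.84 CPM in Cpt1a-deficient libraries and 117.9, 99.77, 108.5 and 87.17 CPM in wild-type ones, which did not overlap. The log2 fold change was -0.66 ± 0.15 (unadjusted p = 3.95e-04, adjusted p = 0.0529). As deposited, without the copy, mt-Nd3 had 64.75, 53.2, 40.86 and 44.13 CPM in the deficient and 76.67, 99.77, 55.68 and 55.3 CPM in the wild-type libraries, which overlapped. On the control diet the summed value was -0.20 ± 0.15. The interaction of diet and genotype in progenitors was -0.46 ± 0.21 with the copy (edgeR, unadjusted p = 0.0429, adjusted p = 0.969). Adding the copy was chosen after seeing the data.

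Tufm was the nuclear member seen most often at an unadjusted p under 0.05. In wild-type stem cells it had 261.4, 199.9, 211.4 and 278.1 CPM on the high-fat diet and 199.8, 201.5, 205.3 and 202.9 CPM on the control diet, a log2 fold change of 0.23 ± 0.10 (adjusted p = 0.386) that ran from 0.14 to 0.30 when single libraries were left out. The control-diet libraries lay close together and the high-fat ones far apart. On the control diet, Cpt1a-deficient stem cells had 262.8, 255.2, 241.6 and 216.6 CPM, all above the 4 wild-type values just given, a log2 fold change of 0.26 ± 0.10 (adjusted p = 0.837). In progenitors on the high-fat diet the Cpt1a-deficient libraries had 276.5, 266.7, 256.1 and 269.7 CPM and the wild-type ones 318.2, 286.6, 305.2 and 348.0 CPM, a log2 fold change of -0.23 ± 0.11 (adjusted p = 0.459).

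In the same progenitors Twnk was at 65.07, 75.76, 73.19 and 62.55 CPM in Cpt1a-deficient and at 55.26, 65.06, 61.53 and 56.71 CPM in wild-type libraries, 0.22 ± 0.10 on the log2 scale (adjusted p = 0.415). Lrpprc in Cpt1a-deficient stem cells had 169.1, 178.9, 192.7 and 190.3 CPM on the high-fat diet and 162.6, 166.2, 159.5 and 159.0 CPM on the control diet, which did not overlap. Its log2 fold change was 0.19 ± 0.07 (adjusted p = 0.809). In wild-type stem cells the diet also came with 1 of 8 goblet (Atoh1), 1 of 6 Paneth (Habp2) and 1 of 7 enterocyte markers (Fabp1) higher. Fabp1 was also higher with diet in Cpt1a-deficient stem cells and with genotype on the control diet in stem cells. The part of these markers in the diet values of the 31 genes was not tested. With the marker score in the model 0 of 31 passed, as without it, so that count cannot show their part. The score also holds no enterocyte marker.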

How the data were processed

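Values came from 32 mouse libraries in 8 groups of 4, taken from the labels. Per the submitters' processing notes, the build was mm10 and the tools included RSEM 1.3.0, SAMtools 1.3 and STAR 2.5.3a. Their roles, the annotation and the strand setting are not given in the sources used here. The authors deposited expected counts (estimated read counts per gene, rounded to whole numbers) and log2 values, the log2 of TPM plus 1, for 50686 genes. Symbols were at hand for 50376 genes and GENCODE M21 positions for 50462.

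Column names give a library's group, not its sex or replicate number. The letters a to d follow the order of the columns. Xist was high in libraries a and b and low in c and d of every group, and its level stood in for the labelled sex. Counts were tested with edgeR 4.0.16 (R 4.3.3; TMM, filterByExpr at a minimum count of 10, robust quasi-likelihood fits, Benjamini-Hochberg at 0.05 over all genes tested), with 32 libraries for the joint model and 16 for each population. Standard errors were taken as |log2 fold change| divided by the root of the F statistic. The filter left 13088 genes in the joint model, 12409 in stem cells and 12460 in progenitors. DESeq2 1.42.0, limma 3.58.1 and other scalings were alternatives, and the fit was tested on simulated data. Nuclear copies were found with blastn 2.17.0 at 99% identity over at least 200 bases. All 31 members were looked at, as were up to 4 genes with the smallest adjusted p from each wider list. Members and lists were chosen with earlier results of these data known.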

Additional observations from a re-analysis of the deposited data

Results flagged for a closer look

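In 10 of 256 tests (3.91%) within groups of 4 libraries, 248 of a member's level and 8 of the mitochondrial share of counts, the highest or lowest library stood apart from the other 3 by the 95% criterion of Dixon's test, which chance does in about 1 in 20 groups. Stem cells of wild-type mice fed the high-fat diet gave 3 of them, all low: mt-Nd2 at 209.2 CPM, where the others had 293.1 to 310.3 CPM, mt-Nd4 at 588.5 CPM, where the others had 881.1 to 919.2 CPM, and mt-Co1 with its copy at 2665 CPM, where the others had 3867 to 4077 CPM. These are all library b, the library with the lowest mitochondrial share. In wild-type stem cells on the control diet mt-Nd1 was low at 1482 CPM (others 1933 to 1968 CPM) and mt-Co2 with its copy at 1430 CPM (others 1941 to 2040 CPM).

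In progenitors, mt-Nd2 was low at 261.8 CPM in a Cpt1a-deficient library on the high-fat diet (others 367.3 to 382.9 CPM), and mt-Co2 with its copy at 1991 CPM in a wild-type library on the control diet (others 2470 to 2515 CPM). In Cpt1a-deficient progenitors on the control diet mt-Nd6 was high at 118.8 CPM (others 109.2 to 110.4 CPM) and Lrpprc low at 171.6 CPM (others 180.3 to 181.7 CPM). In Cpt1a-deficient stem cells on the control diet Mtif3 was high at 42.5 CPM (others 37.64 to 38.0 CPM).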

How the results depend on the processing

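No paired analysis was possible because column names give a library's group and not its replicate number. A block by column set, which the labels do not tie to mice, was run instead. It gave 14 members for stem cells against progenitors over all conditions, where 4462 of 13088 genes tested passed as higher and 4243 as lower. For the same reason the labelled sex and the labelled replicate number were not run as terms, and the Xist level took the place of sex. The 14 comparisons of diet, genotype and their differences gave 0 of 31 members under every alternative run. For stem cells against progenitors over all conditions, the count of members was 11 to 18 under the alternatives other than the marker score, against 13, and 13 to 16 when each of the 32 libraries was left out in turn. All 13 stayed called in each of those 32 fits, for which the shares of all genes are not given here. The count of 18 came from limma on log2 TPM. There, with a pseudocount of 1, 7625 of 13088 genes tested passed as higher and 1988 as lower, against 4259 and 4056 by edgeR. The count of 11 came without a filter on low counts, where 4503 of 30753 genes passed as higher and 4361 as lower.

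With the score of secretory markers in the model, which separates the populations, the count was 0 in each of the 5 comparisons of stem cells with progenitors. Over all conditions, 65 of 13088 genes tested passed as higher and 109 as lower in that model. The values then turned to 0.060 for mt-Nd5, 1.40 for mt-Co3, -0.41 for Polg2, -0.24 for Ssbp1, -0.45 for Tfam, -0.47 for Tfb1m, -0.11 for Tfb2m, -0.056 for Polrmt and -0.28 for Mtif2. These had adjusted p of 0.428 to 0.974 (edgeR). Of the genes called without the score, Twnk (0.64), Polg (0.50), Lrpprc (-0.15), mt-Nd1 (-0.47), Mtif3 (-0.55), Slirp (-0.65), Gfm1 (-0.73), Tufm (-0.76) and Tsfm (-1.25) kept their sign without passing. In Cpt1a-deficient mice on the high-fat diet the count of 4 became 11 by limma with either pseudocount, 12 by limma with the copies added and 2 with only the libraries compared (fewer samples). The shares of all genes that passed in these fits are not given here. The count ran from 2 to 5 when libraries were left out, with 2 without stem cell library d. In the other 3 conditions it ran from 6 to 8 (Cpt1a-deficient, control diet), 6 to 12 (wild type, high-fat diet) and 8 to 11 (wild type, control diet). The shares of all genes in the fits with libraries left out are not given here either.

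By limma on log2(TPM + 1) the sign turned for 14 members: mt-Nd1 (0.010), mt-Nd2 (0.11), mt-Nd4 (0.16), mt-Nd4l (0.11), mt-Nd5 (0.14), mt-Nd6 (0.18), mt-Co3 (0.35), mt-Atp6 (0.16), mt-Atp8 (0.17), mt-Cytb (0.15), Tefm (0.21), Mtpap (0.23), Lrpprc (0.20) and Gfm2 (0.25). With a pseudocount of 0.1 the same 14 turned, with mt-Co3 at 0.49, Tefm at 0.22, Mtpap at 0.24 and Gfm2 at 0.26 and the others within 0.01 of these values. With the nuclear copies added on the log2(TPM + 1) scale the same 14 turned, with mt-Co3 at 0.12, mt-Atp6 at 0.14 and mt-Nd4l at 0.17, and so did mt-Co2 at 0.054. Without a filter on low counts Lrpprc and Mtif2 did not pass. Leaving out single libraries gave -0.65 to 0.069 for mt-Co3, the highest value and the only positive one without library b of Cpt1a-deficient progenitors on the control diet. Adding the nuclear copies, on either scale, and using the column set (4 runs of 8 columns, each with 1 library of every group) as a block were chosen after seeing the data.

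A member that did not pass is not shown to be unchanged. Counts of the 7 genes with copies depend on how reads were shared, as do those of mitochondrial genes that overlap on the same strand. Those of mt-Nd5 and mt-Nd6, which overlap on opposite strands, depend on a strand setting that is not given.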

Other observations

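The 2 mitochondrial rRNAs took 0.0387% to 0.0978% of all counts in stem cells and 0.0403% to 0.0780% in progenitors. The same Cpt1a-deficient, high-fat stem cell library that had the highest share of mitochondrial messengers had the highest share of rRNA.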
